A study of Mus musculus with 6 samples.

Results

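The Vmn2r genes encode the type 2 vomeronasal receptors of the mouse and serve here as a set of genes with no known role in the lung. All protein-coding genes of the mm10 assembly whose symbol starts with Vmn2r were taken, whatever their acetylation. The RefSeq gene table (assembly GRCm38.p6, which mm10 names) lists 124 such genes. Of these, Vmn2r122 has coordinates that restart on a scaffold and was left out, which leaves 123 of the 21774 placed protein-coding genes, including Vmn2r-ps130, which has the symbol of a pseudogene. With 5 kb added on each side, the Vmn2r gene bodies covered 4.42 Mb of the 1180 Mb that all coding genes covered in the same way.

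The libraries profile H3K27ac, the acetylated form of lysine 27 on histone H3 that marks promoters and enhancers in use. In the assay, CUT&RUN, an antibody-directed nuclease releases the DNA around the marked histone. Lungs were pooled from embryos of Myrf Fl/Fl matings at E16.5, late in gestation, while the series text calls the cells wildtype. Both statements cover all groups, and no sample label gives a genotype. Mesothelium, the outer cell layer of the lung, had the gate PDPN+EPCAM-CD45-CD31-DAPI- and was measured in 2 libraries, whose titles give 25k cells for replicate 1 and 100k for replicate 2. Epithelium, the lining of the airways and future air sacs, had the gate PDPN+EPCAM+CD45-CD31-DAPI- and was measured in 2 libraries, with 100k cells for replicate 1 and 200k for replicate 2. The labels name no treatment. The 2 IgG libraries of epithelium were not analysed here. Nothing in the labels says that the libraries of one group came from separate pools of lungs, so the spread between them may be technical.

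The deposited lists held 39010 and 41532 broad peaks in mesothelium and 47873 and 46633 in epithelium, and between 70.1% and 75.6% of the peaks kept per library lay in the domain of a coding gene, meaning the gene body plus 5 kb on each side. The lists give no read depth. The 10 mesothelial marker genes had 26.4 and 55.7 kb under peaks in the mesothelium libraries, against 5.78 and 7.19 kb in the epithelium libraries. The 10 epithelial marker genes had 85.7 and 82.9 kb in epithelium against 12.0 and 3.23 kb in mesothelium. In limma, 5 of 9 tested genes of each list were called longer in the labelled type, while Msln and Krt19 of the mesothelial list were on the side of epithelium, with log2 differences of −1.49 and −0.69 (limma adjusted p of 0.326 and 0.695). The 6 mesenchymal markers also had more in mesothelium, 11.3 and 20.4 kb against 1.22 and 1.32 kb, with Tbx5 called (limma adjusted p = 0.00394). Tbx5 made up 7.85 and 12.7 kb of the mesothelium lengths. Tbx5, Col3a1, Pdgfra and Tcf21 had peaks in mesothelium only, while Col1a1 and Pdgfrb had peaks in both cell types. The 5 endothelial markers had 8.16 and 5.27 kb in mesothelium against 1.02 and 4.33 kb, and limma called 0 of them. Their list was split. Kdr and Tek had peaks in mesothelium only, Cdh5 and Erg in epithelium only, and Pecam1 in all 4 libraries. The part of such cells in the results below was not tested. Of the 6 markers of vomeronasal or olfactory neurons, the defining genes Omp and Trpc2 had no peak in any library, and the whole list had 0.317, 2.195, 2.79 and 2.49 kb (mesothelium replicates 1 and 2, then epithelium replicates 1 and 2).

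Vomeronasal receptors of type 2 are G protein-coupled receptors with a large extracellular domain that binds peptides and proteins. They are made by sensory neurons of the basal layer of the vomeronasal organ, which detects pheromones and predator cues. Each such neuron makes one receptor of the large families together with one or more of the family C receptors, Vmn2r1 to Vmn2r7, which are broadly shared between neurons. The signal passes through the G protein subunit Gnao1 and the channel Trpc2. In other tissues, receptor genes of this kind lie in gene clusters that are in general not transcribed.

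The promoters of these genes differ from those of most genes, and the letters just before the start show it. The first pair of sequences below belongs to the members with a peak over the window of the RefSeq promoter table, Vmn2r3 and Vmn2r57, each in 1 library. The second pair belongs to members with a known ligand and no peak in any library, Vmn2r88, a receptor for haemoglobin, and Vmn2r116, the receptor for the male tear peptide ESP1. The last, Rpl15, a ribosomal protein gene with a peak over its start in all 4 libraries, is the contrast. Each run is the 250 bases before the annotated start, 5′ to 3′ on the strand of the gene, from the RefSeq promoter table of GRCm38.p6. Capitals mark each CG pair and each match to TATAAA on either strand, TAATTA or CCCNNGGG.
Vmn2r3: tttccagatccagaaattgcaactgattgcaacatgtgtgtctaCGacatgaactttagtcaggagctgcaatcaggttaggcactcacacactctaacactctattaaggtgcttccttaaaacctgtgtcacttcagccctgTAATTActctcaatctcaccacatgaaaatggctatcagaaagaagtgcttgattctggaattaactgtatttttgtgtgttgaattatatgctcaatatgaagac
Vmn2r57: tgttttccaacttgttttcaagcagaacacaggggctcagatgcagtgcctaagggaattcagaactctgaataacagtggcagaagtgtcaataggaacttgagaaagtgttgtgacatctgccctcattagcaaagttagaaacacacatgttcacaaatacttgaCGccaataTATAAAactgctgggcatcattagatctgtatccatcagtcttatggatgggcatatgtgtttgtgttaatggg
Vmn2r88: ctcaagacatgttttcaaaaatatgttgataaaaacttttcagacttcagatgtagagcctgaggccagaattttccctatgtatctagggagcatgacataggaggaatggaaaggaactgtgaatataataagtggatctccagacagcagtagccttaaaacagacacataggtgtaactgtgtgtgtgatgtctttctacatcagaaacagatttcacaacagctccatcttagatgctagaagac
Vmn2r116: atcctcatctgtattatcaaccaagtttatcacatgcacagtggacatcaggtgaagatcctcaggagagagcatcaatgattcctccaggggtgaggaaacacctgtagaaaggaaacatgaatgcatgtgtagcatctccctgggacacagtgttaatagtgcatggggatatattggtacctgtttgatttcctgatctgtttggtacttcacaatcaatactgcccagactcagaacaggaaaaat
Rpl15: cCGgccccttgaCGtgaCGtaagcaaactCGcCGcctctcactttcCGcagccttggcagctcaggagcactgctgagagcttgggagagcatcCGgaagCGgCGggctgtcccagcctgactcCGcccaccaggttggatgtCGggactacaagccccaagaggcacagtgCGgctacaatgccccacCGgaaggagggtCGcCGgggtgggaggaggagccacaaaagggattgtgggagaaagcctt

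The windows lie at chr3:64287418-64287667 (minus strand) for Vmn2r3, chr7:41448642-41448891 (minus) for Vmn2r57, chr14:51410751-51411000 (plus) for Vmn2r88, chr17:23384553-23384802 (plus) for Vmn2r116 and chr14:18270987-18271236 (minus) for Rpl15. The 250 bases of Vmn2r3 and Vmn2r57 hold 1 CG pair each and those of Vmn2r88 and Vmn2r116 hold 0, whereas those of Rpl15 hold 15. GC content is 38.8% for Vmn2r3, 40.8% for Vmn2r57, 38.8% for Vmn2r88 and 42.8% for Vmn2r116, against 63.6% for Rpl15. Rpl15 was taken as the first by symbol of 9 ribosomal genes with a peak over the start in all 4 libraries, after their values were seen.

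Over all 117 members with a promoter window of 300 bases (250 before to 50 after the start), the median GC content was 38% and the median number of CG pairs was 1. Over the 17492 coding genes with a window, the medians were 56.3% and 13. At least 10 CG pairs stood in 1 member window (0.855%), that of Vmn2r29 with 23, and in 57.2% of all windows. No CG pair stood in 33 member windows (28.2%) and in 5.20% of all windows. The letters TATAAA, on either strand, were in 23.1% of member windows and 13.3% of all windows. TAATTA, the core bound by many homeodomain factors, was in 17.1% against 4.68%. The palindrome CCCNNGGG, the core of sites for Ebf factors, was in 18.8% against 15.3%, and CANNTG, the E-box, in 97.4% against 68.8%. Each motif was searched on its own, so matches to different motifs may share bases, and a match is a description of the letters and not of binding. The Olfr genes, which encode the odorant receptors of the main olfactory epithelium, shared the low CG content, with a median of 1 pair, and the Vmn1r genes, which encode the type 1 vomeronasal receptors, also had a median of 1. TATAAA was in 41.1% of Olfr and 42.2% of Vmn1r windows, above the Vmn2r share. TAATTA was in 18.6% and 7.28%, CANNTG in 77.5% and 82.0%, and CCCNNGGG in 3.07% and 0.485%.

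Many members are near copies. The closest other member had a median promoter identity of 92.0% over the 117 windows, and 37 windows were at least 95% identical to another member, of which 8 were identical. Reads that match several copies equally well cannot be placed with certainty. Only the promoter windows were compared, so the share of such reads is not known. How the authors treated reads with several placements is not given in the sources used here. In the 24-gene cluster on chromosome 7 from Vmn2r29 to Vmn2r52, 15 of the 22 windows were at least 95% identical to another member, and in the 8-gene cluster on chromosome 17 from Vmn2r111 to Vmn2r117 all 8 were.

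The first comparison asked how much acetylated sequence the Vmn2r genes carry beside all coding genes of the same library. The Vmn2r domains carried little in either cell type. Mesothelium replicate 1 had 0.988 kb under peaks per Mb of Vmn2r domain and mesothelium replicate 2 had 1.09 kb per Mb. Epithelium replicate 1 had 2.95 kb per Mb and epithelium replicate 2 had 2.23 kb per Mb. The domains of all coding genes had 24.5, 27.6, 28.6 and 26.6 kb per Mb in the same order. Every library was thus far lower at the Vmn2r genes than at coding genes as a whole, and the values did not overlap.

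As a share of the level at all coding genes, the Vmn2r level was 4.03% and 3.95% in the mesothelium pair and 10.33% and 8.39% in the epithelium pair, a mean of 6.67% ± 3.20 (SD, n = 4). On the log2 scale the ratio was −4.04 ± 0.72 (SD, n = 4) and lay below 0 in 4 of 4 libraries. The exact two-sided sign-flip permutation test gave p = 0.125, the smallest value that 4 libraries allow. The Vmn2r level was also below that of the genome outside all coding domains, which had 4.61 and 4.86 kb per Mb in mesothelium and 7.24 and 6.69 kb per Mb in epithelium. A gene without a peak is not shown to lack acetylation, since the lists leave out whatever fell under the threshold of the calls.

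**Figure D1:**
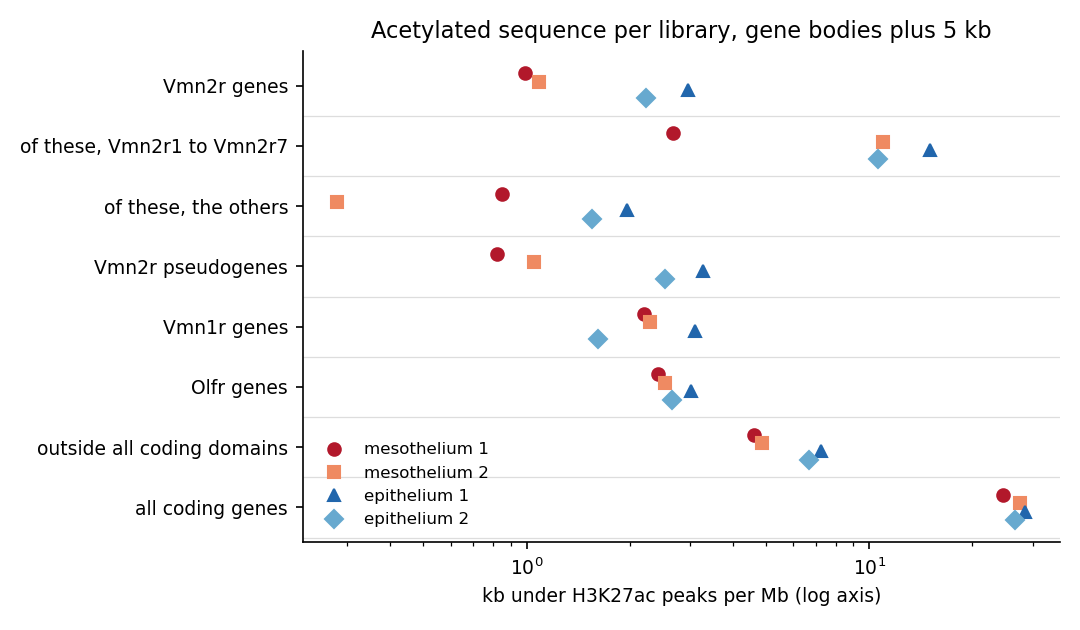
Covered length per library for the Vmn2r genes, subsets of them, other receptor families, the genome outside coding domains and all coding genes, in kb under peaks per Mb on a log axis. Each point is 1 library. The Vmn2r genes lie between 0.988 and 2.95 kb per Mb and all coding genes between 24.5 and 28.6.

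Other chemosensory receptor genes lay in the same low range. The 1109 Olfr genes had 2.43 and 2.53 kb per Mb in mesothelium and 3.03 and 2.65 in epithelium, or between 9.17% and 10.599% of the coding level. The 229 Vmn1r genes had 2.198 and 2.29 kb per Mb in mesothelium and 3.11 and 1.61 in epithelium, or between 6.05% and 10.9%. In mesothelium both Vmn2r values were lower than both Olfr and both Vmn1r values, and in epithelium the families overlapped. The difference between families was not tested. The 148 Vmn2r pseudogene entries, counted outside the domains of the coding members, had 0.823, 1.05, 3.28 and 2.53 kb per Mb, close to the coding members in each library. At the other end, 101 genes with a symbol of the cytosolic ribosomal proteins, of which 10 are S6 kinase genes that share the prefix, had 51.3 and 70.7 kb per Mb in mesothelium and 47.7 and 46.2 in epithelium. Without the kinase genes the values were 78.4, 110.3, 69.4 and 69.4 kb per Mb.

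The second comparison set mesothelium against epithelium. Epithelium had more acetylated sequence at the Vmn2r genes in both of its libraries. The mean was 2.59 ± 0.507 kb per Mb in epithelium and 1.04 ± 0.0716 in mesothelium (SD, n = 2 each), which is 2.498-fold higher in epithelium. The difference, mesothelium minus epithelium, was −1.56 kb per Mb with p = 0.333 in an exact two-sided permutation test, the smallest value that 2 libraries against 2 allow. The 58 Vmn2r peaks divided into 9 and 7 in mesothelium and 23 and 19 in epithelium. All coding genes were 1.06-fold higher in epithelium, Olfr genes 1.15-fold, Vmn1r genes 1.05-fold, and the Vmn2r pseudogenes 3.10-fold. The genome outside coding domains was 1.47-fold higher. The lists of epithelium were also longer and, at all coding genes, held more peaks with a −log10 q under 1.25. The part of list length in the difference was not tested beyond the values that follow.

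Many of the epithelium peaks were of low significance. Each list starts at a −log10 q of 1.00 to 1.03. Peaks with a −log10 q under 1.25 made up 0 of 9 and 0 of 7 Vmn2r peaks in mesothelium, but 11 of 23 (47.8%) in epithelium replicate 1 and 5 of 19 (26.3%) in epithelium replicate 2. At all coding genes the shares were 2.13%, 0.857%, 23.7% and 23.4%. The cut falls at different ranks of the lists. In mesothelium replicate 1 the peaks of Vmn2r1, Vmn2r17, Vmn2r60 and Vmn2r124 shared a −log10 q of 1.32, with 5.12% of coding peaks lower. In epithelium replicate 1 all peaks under 1.25 except that of Vmn2r7 shared a single value, with 5.94% of coding peaks lower. The contrast at 1.25 between the replicate 1 libraries thus rests on where the cut falls. When the −log10 q had to be 2 or more, the Vmn2r domains kept 2, 4, 2 and 1 peaks, and the Vmn2r level was 1.96%, 3.10%, 2.12% and 0.883% of the coding level. At that threshold the mean of epithelium no longer lay above that of mesothelium, and the difference was 0.225 kb per Mb in the other direction. The values were 0.183, 0.537, 0.193 and 0.0766 kb per Mb (mesothelium replicates 1 and 2, then epithelium replicates 1 and 2). Mesothelium replicate 2 was thus the highest, while epithelium replicate 1 lay slightly above mesothelium replicate 1. The threshold did not cut the lists alike. Of peaks at coding genes it kept 55.3% for mesothelium replicate 2 and between 25.4% and 33.3% for the other libraries. With as many top-ranked peaks from each library as the shortest list holds, the difference was −0.699 kb per Mb. At a −log10 q of at least 2 the Olfr genes stayed at 6.45% to 9.08% of the coding level in the 4 libraries, above the Vmn2r genes in each. The order was not the same at every cut. The Vmn2r genes were higher at 1.25 in epithelium replicate 2 (7.92% against 6.35%). They were also higher at 2.5 in mesothelium replicate 2 (5.21% against 3.49%) and at 3 in mesothelium replicate 1 (3.72% against 2.34%). In the remaining libraries at these cuts the Olfr genes were higher.

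**Figure D2:**
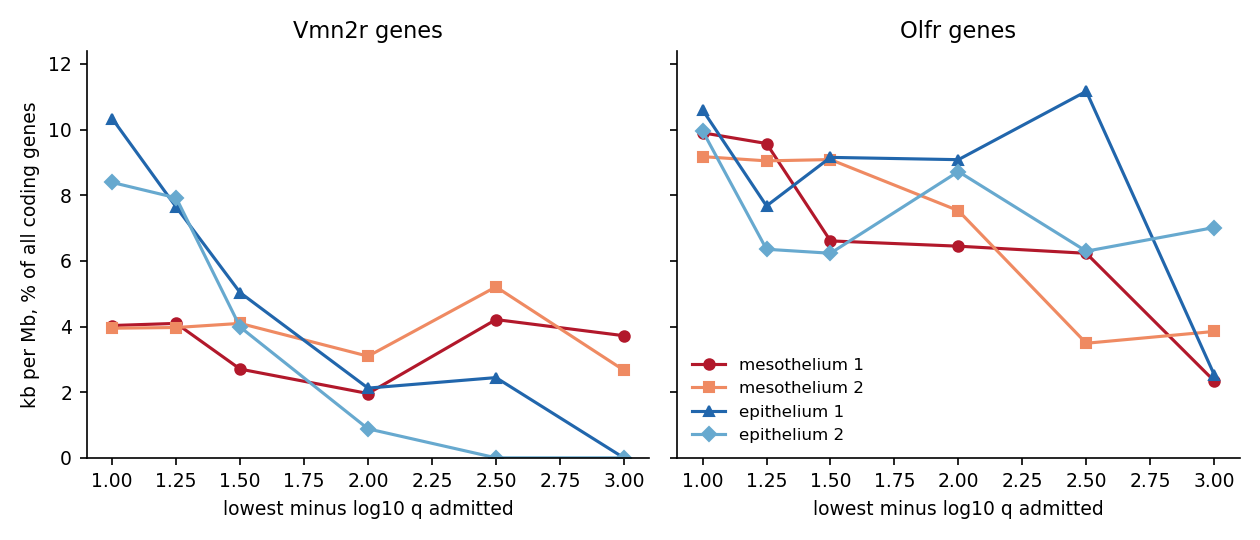
Covered length at Vmn2r genes (left) and Olfr genes (right) as a percent of that at all coding genes, against the lowest −log10 q admitted, with 1 line per library. At Vmn2r genes the epithelium libraries start at 10.33% and 8.39% and reach 2.12% and 0.883% at a −log10 q of 2, where the mesothelium libraries are at 1.96% and 3.10%.

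Single peaks at Vmn2r genes were narrower than peaks at coding genes. With the 5 kb flank their fold enrichment did not differ beyond the spread between libraries. Mesothelium had median widths of 440 and 432 bp and epithelium 416 and 407 bp, against 644, 685, 625 and 611 bp for all peaks in coding domains. The log2 ratio of widths was −0.60 ± 0.05 (SD, n = 4), lower in 4 of 4 libraries, with p = 0.125 in the exact sign-flip permutation test, again the smallest possible. The Olfr peaks were also narrow, with medians of 457.5, 473, 538 and 484 bp. Vmn2r peaks ranged from 309 to 1577 bp, and 6 of the 58 were at least 1 kb wide.

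The fold enrichment that the authors' peak caller gave had medians of 3.46, 4.18, 3.17 and 3.36 at Vmn2r genes and 3.62, 3.77, 3.49 and 3.505 at coding genes. The log2 ratio was −0.03 ± 0.12 (SD, n = 4), lower in 3 of 4 libraries, with an exact permutation p of 0.75. The median −log10 q was 1.51, 2.60, 1.26 and 1.47 at Vmn2r genes and 1.74, 2.09, 1.58 and 1.59 at coding genes. The mean difference was −0.04 ± 0.38 (SD, n = 4), lower in 3 of 4 libraries, with an exact permutation p of 0.875. Mesothelium replicate 2 was the exception in both measures and rests on 7 peaks. With the 5 kb flank neither measure differed beyond the spread between libraries. With a flank of 10 kb both were lower at Vmn2r genes, by −0.064 for the log2 fold ratio and −0.185 for the −log10 q. Each then had p = 0.125 in the exact sign-flip permutation test, the smallest possible. Without mesothelium replicate 2 the values were −0.087 and −0.221.

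**Figure D3:**
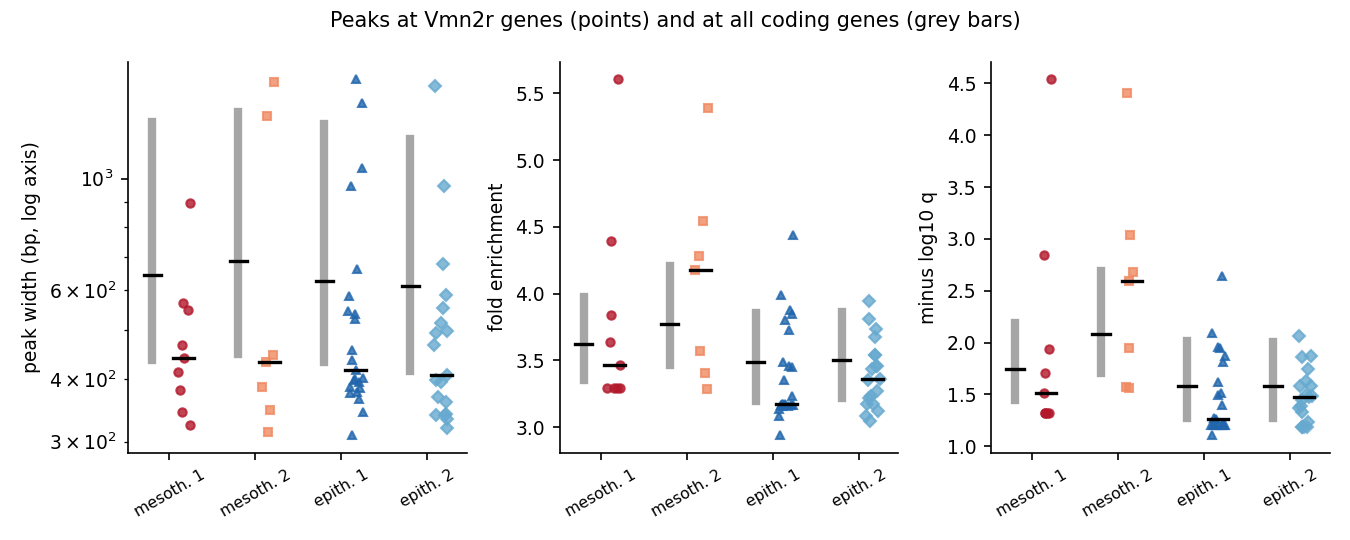
Width, fold enrichment and −log10 q of the 58 Vmn2r peaks by library. Points are single peaks and the bar through them is their median, while grey bars run from the lower to the upper quartile of all peaks in coding domains, with their median. The Vmn2r width medians, 407 to 440 bp, lie below the coding medians of 611 to 685 bp in every library.

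Of the 58 peaks, 9 had a −log10 q of at least 2, and 2 had at least 4. By library, the share with at least 2 was 22.2%, 57.1%, 8.70% and 5.26%, against 33.3%, 55.3%, 25.5% and 25.4% of peaks at coding genes, so it was below the coding share in 3 libraries and slightly above it in mesothelium replicate 2. The share with at least 4 was 11.1% and 14.3% in mesothelium, 1 peak each, against 1.81% and 6.06% of coding peaks, and 0 in epithelium. The more significant of the pair, with a −log10 q of 4.54, was in the downstream flank of Vmn2r29 at chr7:7209750-7210092 in mesothelium replicate 1, and it lies in the body of Zfp772, a zinc finger gene. It is the only Vmn2r peak that overlaps another coding gene. The second, with a −log10 q of 4.40, lay 5′ of Vmn2r4 at chr3:64419239-64419584 in mesothelium replicate 2. Neither interval had a peak in another library. The most significant peaks of epithelium were weaker, with a −log10 q of 2.64 in Vmn2r103 at chr17:19779984-19780440 for replicate 1 and 2.06 beside Vmn2r20 at chr6:123383763-123384101 for replicate 2.

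The widest peaks were different ones. They were 893 bp in Vmn2r1 for mesothelium replicate 1, 1561 bp beside Vmn2r6 for mesothelium replicate 2, 1577 bp in Vmn2r5 for epithelium replicate 1 and 1529 bp in Vmn2r30 for epithelium replicate 2. The wide peak of Vmn2r5, at chr3:64502805-64504381, had a −log10 q of 1.27, close to the threshold of its list. Of the 58 peaks, 41 touched a gene body, 11 lay in an upstream flank only and 6 in a downstream flank only. The median distance from a Vmn2r peak to the nearest coding gene outside the family was 172.5 kb.

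Peaks were rarely found at the same place in a second library. After merging overlapping peaks, the 58 peaks formed 52 regions, of which 46 were found in 1 library and 6 in 2. The 6 shared regions were at Vmn2r1, Vmn2r8, Vmn2r11 and Vmn2r66 in both epithelium libraries, and 2 at Vmn2r6 in mesothelium replicate 2 and epithelium replicate 2. Between the mesothelium libraries 0 of 9 and 0 of 7 Vmn2r peaks overlapped, where 31.8% and 29.4% of peaks at coding genes did. Between the epithelium libraries 4 of 23 (17.4%) and 4 of 19 (21.1%) overlapped, where 28.8% and 29.4% of peaks at coding genes did. For Olfr genes the shares were 8.62% and 8.93% in mesothelium and 3.17% and 3.28% in epithelium.

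Counted by gene, a peak was found at 10 members in mesothelium replicate 1 (8.13%, exact 95% interval 3.97% to 14.4%), against 50.9% of all coding genes. The count was 5 in mesothelium replicate 2 (4.07%, 1.33% to 9.23%), against 54.3%. It was 18 in epithelium replicate 1 (14.6%, 8.91% to 22.1%), against 53.6%, and 16 in epithelium replicate 2 (13.0%, 7.62% to 20.3%), against 53.8%. The intervals cover counting error only, and neighbouring members share sequence. All 4 shares lay far below the share over coding genes, although the median Vmn2r body, 24.5 kb, is longer than the median coding gene, 17.2 kb.

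Over the libraries together, 39 members had a peak in at least 1 library (31.7%, against 73.3% of coding genes) and 84 had none (68.3%, against 26.7%). A peak in at least 2 libraries was found at 9 members (7.32%, against 59.4%), in at least 3 at Vmn2r1 alone (against 46.9%), and in all 4 at 0 members (against 33%). Of the 39, 29 had a single peak in a single library. No member had a peak in both mesothelium libraries and in neither epithelium library (against 2.39%), and 5 had a peak in both epithelium libraries and in neither mesothelium library (against 2.82%), namely Vmn2r3, Vmn2r7, Vmn2r8, Vmn2r11 and Vmn2r66. The covered lengths of the groups did not overlap at 6 members, each longer in epithelium (against 13.1%), and at 0 members longer in mesothelium (against 13.4%).

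**Figure D4:**
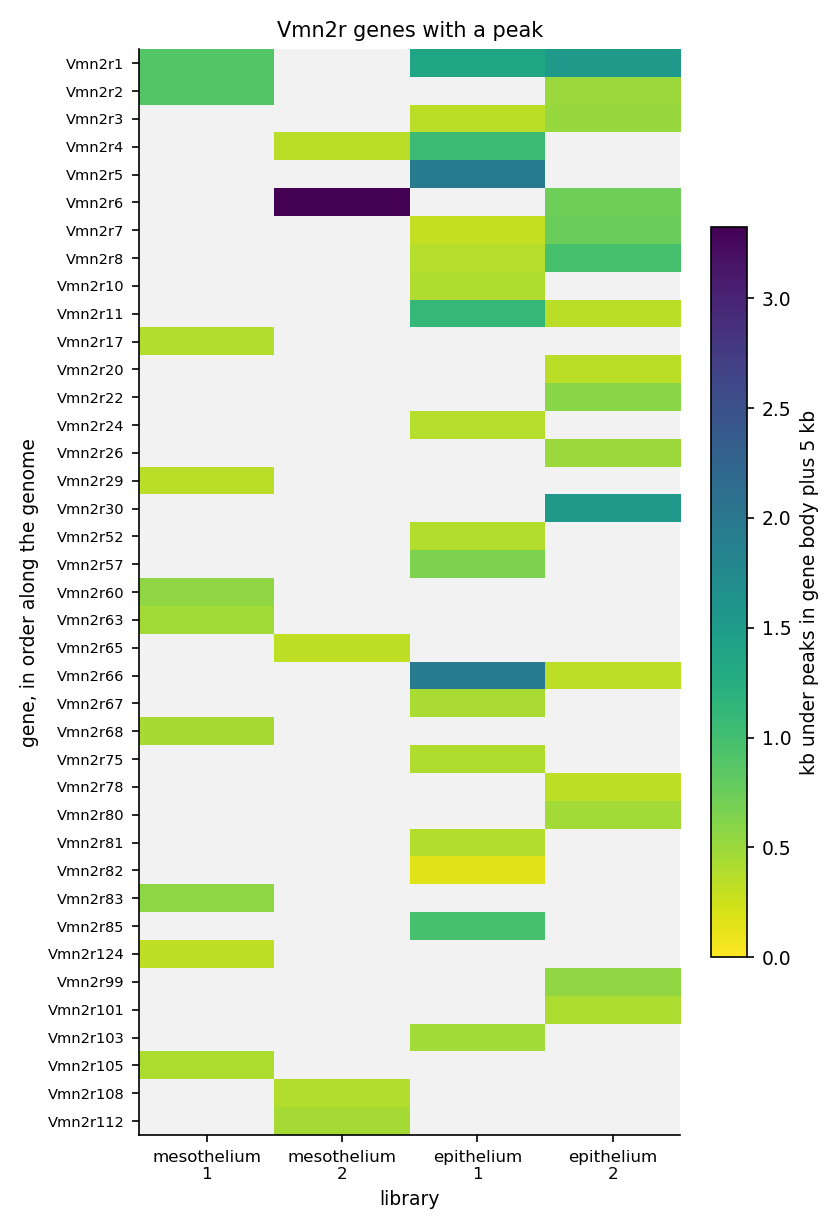
Kilobases under peaks in the gene body plus 5 kb for the 39 Vmn2r genes with a peak, in order along the genome, in each library. Pale cells have no peak. Most genes have a peak in 1 column only, and of the 9 genes filled in more columns 6 are among Vmn2r1 to Vmn2r7 at the top.

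Peaks over the start of a gene were rarer still. A peak lay over the promoter window of 0 of 117 members in mesothelium replicate 1 (against 18.7% of coding genes), 0 in mesothelium replicate 2 (against 27.2%), 2 in epithelium replicate 1 (against 19%) and 0 in epithelium replicate 2 (against 19.1%). The peak of Vmn2r3 was at chr3:64287590-64287933 with a −log10 q of 1.62, and that of Vmn2r57 at chr7:41448741-41449402 with a −log10 q of 1.87. Their promoter sequences, printed above, hold 1 CG pair each. For 6 members the 5′ end of the gene body in the gene table lies outside the promoter window, Vmn2r1 among them. With a window of the same size at that 5′ end, a choice made after seeing the data, the counts were 0 (against 15.5% of coding genes), 0 (against 23.2%), 2 (against 15.9%) and 1 (against 15.8%). The added peak, at chr3:64077909-64078585 in epithelium replicate 2 with a −log10 q of 1.58, covers the 5′ end of the Vmn2r1 body at position 64078172. Of 944 Olfr genes with a window, 1, 3, 2 and 5 had a peak over it.

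With every listed peak counted, the family C genes Vmn2r1 to Vmn2r7 stood apart from the other members. They share 1 cluster at chr3:64078172-64719602, whose domains are 334 kb long, 7.54% of the Vmn2r sequence, and held 21 of the 58 peaks (36.2%). All 7 had a peak, against 32 of the other 116. Their domains had 2.68 and 11.004 kb per Mb in mesothelium and 15.0 and 10.64 in epithelium, or 10.9%, 39.9%, 52.6% and 39.9% of the coding level. The other members had 0.850 and 0.280 kb per Mb in mesothelium and 1.97 and 1.55 in epithelium, or 3.47%, 1.02%, 6.89% and 5.81%. Family C was above the others in each of the 4 libraries when every listed peak was counted. The value of mesothelium replicate 1 rests on 1 peak, with a −log10 q of 1.32. At a −log10 q of at least 2, family C kept 0, 2, 0 and 0 peaks and the other members 2, 2, 2 and 1. At that cut only mesothelium replicate 2 kept a family C peak. The division was examined after the values were seen, so no test is given.

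Single family C genes differed between libraries. Vmn2r1, which many basal neurons make, had 1.37 and 1.54 kb under peaks in epithelium, 0.893 kb in mesothelium replicate 1 and none in mesothelium replicate 2, in 7 peaks, the most of any member. Its gene body is 142.7 kb long, the longest of the family, and overlaps that of Vmn2r2, so that some peaks belong to both. Vmn2r2 had peaks in mesothelium replicate 1 (0.893 kb) and epithelium replicate 2 (0.498 kb). Vmn2r6 was highest in mesothelium replicate 2, with 3.33 kb there, 0.734 kb in epithelium replicate 2 and no peak in the other libraries. The 2 epithelium peaks of Vmn2r6, at chr3:64563525-64563919 and chr3:64566608-64566946, lie inside its wide peaks of mesothelium replicate 2.

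Vmn2r5 had peaks in epithelium replicate 1 alone, with 1.94 kb in 2 peaks. Vmn2r4 had 0.346 kb in mesothelium replicate 2 and 1.05 kb in epithelium replicate 1. Vmn2r3 had no peak in mesothelium and 0.344 and 0.517 kb in epithelium, and Vmn2r7 had none in mesothelium and 0.309 and 0.756 kb in epithelium. In no family C gene did both libraries of mesothelium have a peak.

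**Figure D5:**
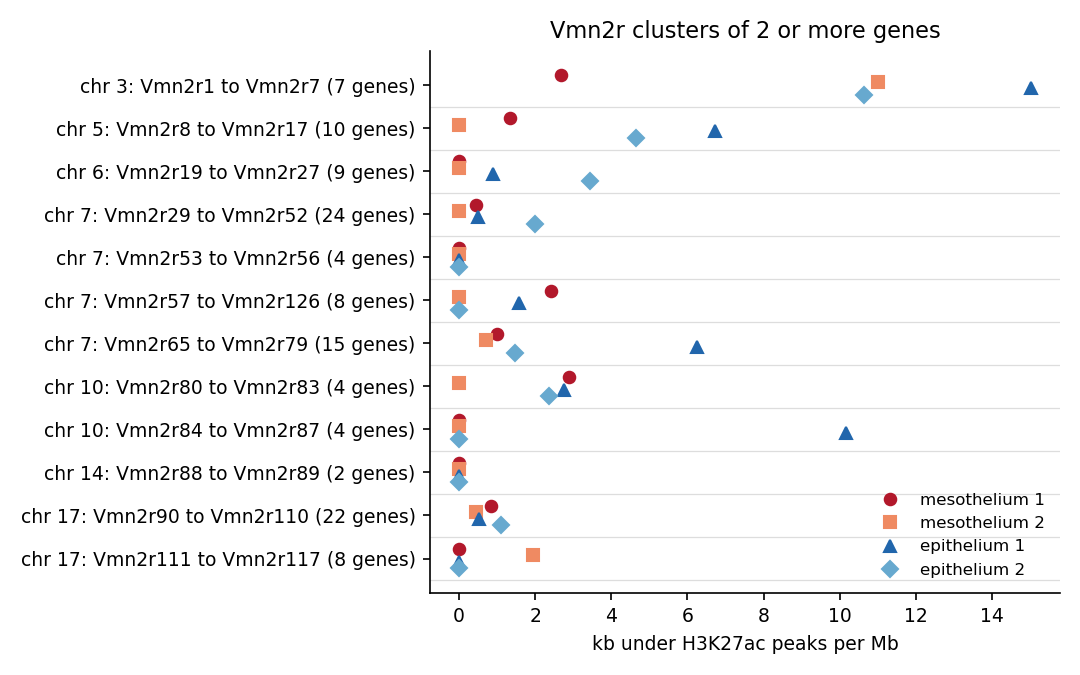
Covered length in kb under peaks per Mb for the Vmn2r clusters of 2 or more genes, with 1 point per library. The chromosome 3 cluster of Vmn2r1 to Vmn2r7 reaches 15.0 kb per Mb in epithelium replicate 1, and the clusters of 24 genes on chromosome 7 and 22 genes on chromosome 17 stay at or below 2.01.

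Members on 1 chromosome with under 1 Mb between neighbouring bodies formed 18 clusters on chromosomes 3, 4, 5, 6, 7, 10, 14, 17 and X. The cluster of 10 genes on chromosome 5, Vmn2r8 to Vmn2r17, had 1.35 and 0 kb per Mb in mesothelium and 6.71 and 4.66 in epithelium. In it, Vmn2r8 had 0.374 and 0.968 kb in the epithelium libraries and Vmn2r11 had 1.11 and 0.341 kb, and both had none in mesothelium. The cluster of 15 genes on chromosome 7, Vmn2r65 to Vmn2r79, had 0.991, 0.707, 6.24 and 1.47 kb per Mb and held 8 peaks. The cluster of 24 genes on chromosome 7 held 3 peaks in 0.760 Mb, the lowest number per Mb among the clusters with a peak. Many of its promoters are near-identical, as are those of the cluster Vmn2r111 to Vmn2r117 on chromosome 17, which held 1 peak. A link between promoter identity and number of peaks was not tested. In 8 clusters no library had a peak, and 6 of these hold a single gene.

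Members with near copies were compared with the rest. The 37 members whose window was at least 95% identical to another had 0 and 3.24 kb per Mb in mesothelium and 1.59 and 3.10 in epithelium. The other 80 with a window had 1.48 and 0.237 kb per Mb in mesothelium and 3.08 and 2.01 in epithelium. Without Vmn2r1 to Vmn2r7, which carry most of the near-copy sequence in mesothelium replicate 2 and epithelium replicate 1, the values were 0, 0.385, 0.571 and 2.12 kb per Mb for 34 members with a near copy and 1.26, 0.253, 2.67 and 1.40 for 77 others. In both forms the order changed from library to library. Without Vmn2r1 to Vmn2r7 the values rest on 0, 1, 1 and 3 peaks for members with a near copy and 8, 2, 14 and 8 for the others. The mean share of the coding level was then 2.84% ± 3.51 and 5.17% ± 3.44 (SD, n = 4 each). The difference was not tested. Members with a peak had a median closest identity of 89.7% and members without one 93.0%.

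Vmn2r88 and Vmn2r116, the receptors for haemoglobin and ESP1, had no peak in any library. Vmn2r26, a receptor of basal vomeronasal neurons, had 0.494 kb in epithelium replicate 2, in 1 peak at chr6:124040178-124040671 with a −log10 q of 1.23, and none in the other libraries.

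Between mesothelium and epithelium, the acetylated length of each coding gene was tested with limma, and few members could enter. With a mean of at least 0.5 kb over the libraries required, 10799 coding genes and 3 of 123 members were tested. After Benjamini-Hochberg adjustment over all tested genes, limma called 0 of the 3 members, where it called 2.56% of all tested genes (276, of which 94, or 0.87%, were longer in mesothelium and 182, or 1.69%, in epithelium). The division by direction moved with the library left out, with 18 longer in mesothelium and 120 in epithelium without mesothelium replicate 2, 21 and 188 without mesothelium replicate 1, 136 and 157 without epithelium replicate 1, and 157 and 144 without epithelium replicate 2. None of the 3 had an unadjusted p under 0.05, where 1763 of all tested genes did. A gene of low values passes the requirement through the libraries where it is high, so the 3 do not speak for the family.

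The tested members were Vmn2r1, Vmn2r6 and Vmn2r66. On the log2(kb + 0.5) scale, which understates changes of low genes, Vmn2r1 differed by −1.27 (SE 0.83, limma adjusted p = 0.484), mesothelium minus epithelium. Vmn2r6 differed by 0.78 (SE 1.00, limma adjusted p = 0.761). Vmn2r66 had no peak in either mesothelium library and 1.96 and 0.333 kb in epithelium, a difference of −1.56 (SE 0.94, limma adjusted p = 0.439). The member just under the requirement was Vmn2r5, with a mean of 0.486 kb. The median difference over all tested genes was 0.02.

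Genes of the vomeronasal neuron and its signalling pathway were taken from a list of 32. Of these, 19 had no peak in any library (59.4%, against 26.7% of coding genes). In the limma test 11 entered and 0 were called (against 2.56% of all tested genes). Among those without a peak were Trpc2, the channel of vomeronasal transduction, Omp, the mature olfactory neuron marker, Lhx2 and Emx2, homeodomain factors of olfactory development, 8 of the 9 H2-M genes, which encode class I molecules found on neurons with type 2 receptors, and the 4 formyl peptide receptor genes of the list. Gnao1 had 0.317, 1.80, 0 and 0.36 kb under peaks, mesothelium libraries first. Bcl11b had none in mesothelium and 2.43 and 1.62 kb in epithelium. The 6 genes of the list with the most acetylated sequence were Ano1, Robo2, Nrp2, Ldb1, Kirrel3 and Gnai2. Ano1, a calcium-activated chloride channel, had 12.5 and 13.7 kb in epithelium, more than the 8.48 and 9.27 kb of mesothelium. Robo2, an axon guidance receptor, had 14.0, 7.61, 11.007 and 6.77 kb, mesothelium libraries first. Nrp2, a semaphorin receptor, had 3.45, 6.29, 3.67 and 1.72 kb, and Ldb1, a partner of LIM homeodomain factors, had between 3.27 and 3.92 kb in the 4 libraries. Kirrel3, an adhesion molecule, had 1.66, 1.15, 5.45 and 2.52 kb, and Gnai2, the G protein subunit used with type 1 receptors, had 2.80, 3.24, 1.81 and 2.72 kb. These levels are per gene, and the genes differ in length.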

How the data were processed

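H3K27ac CUT&RUN libraries from sorted lung cells were each deposited as 1 list of broad peaks. Per the submitters' processing notes, Bowtie2 2.5.3, MACS2 2.2.9.1 and mm10 were used among other tools, without the role of each. The fold enrichment (a ratio) and the −log10 p and −log10 q are the authors' deposited values for each peak. The authors' deposited score column was not used. What served as control for the peak calls, and their threshold, is not given in the sources used here.

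Peaks outside chromosomes 1 to 19, X and Y, 1 to 8 per library, were dropped. Covered length was counted over merged gene bodies plus 5 kb, and a peak belonged to a domain at an overlap of 1 bp. Of 21887 coding entries, 113 with coordinates on scaffolds were left out. Depth is unknown, so the number of libraries limits precision, and no count model was run. Libraries were compared by exact permutation tests and, per gene, with limma 3.58.1 (log2(kb + 0.5), median-centred, trend, Benjamini-Hochberg threshold 0.05). Promoter identity came from Biopython 1.88 global alignment. The scripts were tested on simulated data. Alternatives covered flank, peak threshold, width, list length, reference set, scaling, filter, pseudocount, replicate block and each library left out.

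Genes named were those with a peak in at least 2 libraries, the 10 with the most acetylated sequence, those with the widest or most significant peak of a library, Vmn2r1 to Vmn2r7, Vmn2r26, Vmn2r88, Vmn2r116 and the 6 pathway genes with the most sequence. Members and lists were chosen with earlier results of these data known.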

Additional observations from a re-analysis of the deposited data

How the results depend on the processing

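The log2 coverage ratio and the log2 width ratio to all coding genes kept their direction in all 13 alternatives run for each, between −5.77 and −3.21 and between −0.97 and −0.45, and without Vmn2r1 to Vmn2r7, an alternative chosen after seeing the data, the coverage ratio was −4.86. The difference of mesothelium minus epithelium reversed to 0.2251 kb per Mb at a −log10 q of at least 2 and to 0.07787 at 4, where few member peaks are left, and ranged from −1.913 to −1.197 with a library left out. The small fold enrichment ratio reversed to 0.06598 at a −log10 q of at least 2, to 0.003786 with equal numbers of peaks and to 0.008176 without epithelium replicate 1 (lowest −0.08712). The −log10 q difference reversed to 0.2579, 0.01125 and, without Vmn2r1 to Vmn2r7, 0.01197, and ranged from −0.2207 without mesothelium replicate 2 to 0.05652 without epithelium replicate 1, with 0.0259 without mesothelium replicate 1. The cause was not tested. Genes with a peak numbered 9 where the −log10 q had to reach 2, 2 where it had to reach 4, 5 with peaks of at least 1 kb, and 28 to 36 with a library left out. At a −log10 q of at least 4 or a width of at least 1 kb, a library without a member peak left no value for the ratios.

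The limma calls over all coding genes, 276, fell to 0 at a −log10 q of at least 2 (936 at an unadjusted p under 0.05), 0 at 4 (29), 0 with peaks of at least 1 kb (1695) and 0 with a pseudocount of 0.1 kb (1586). They were 127 with equal numbers of peaks, 117 with quantile normalization, 122 with total covered length, 519 with any gene with a peak, and 138 (without mesothelium replicate 2) to 301 with a library left out. With a library left out, the lone library of its group is assumed to vary like the other group. With the replicate number as a block they were 616. The numbers do not pair the samples by any label, and the deviations of same-numbered libraries correlated at 0.02 over the tested genes. No member was called in these 15 alternatives, but no member entered the test at a −log10 q of at least 2 or 4, and with peaks of at least 1 kb or a pseudocount of 0.1 kb no gene at all was called. In the other 11, between 1 and 39 members were tested, with a lowest limma adjusted p of 0.34.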
